A study of Homo sapiens
Mus musculus with 5 samples.

Results

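Genes of the voltage-gated ion channel superfamily were examined in 5 tumors of H2030-BrM3, a brain-seeking derivative of a human lung adenocarcinoma cell line. They were picked by symbol in a table of human genes, which stands for the cancer cells, and in a table of mouse genes, which stands for the host tissue. The rule took symbols beginning with KCN and a subfamily letter (potassium channels), the SCN symbols of sodium channel pore and beta subunits, symbols beginning with CACNA, CACNB or CACNG (calcium channels), and HCN symbols (channels opened by hyperpolarization and cyclic nucleotides). It found 107 of 25524 human genes and 136 of 24628 mouse genes, together 243 of 50152. The hosts of all tumors were athymic nu/nu mice, whose missing thymus leaves few T cells. The design set 3 brain tumors against 2 lung tumors, which were seeded through the trachea, and the labels used here give no route for the brain tumors. Whether each tumor is from its own animal is not stated, so the p-values cover the spread of these samples, which may be technical.

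The name of the family is wider than the biology of its members. The human genes held 65 potassium, 10 sodium, 21 calcium and 4 HCN genes and 7 antisense or overlapping RNAs, and the mouse genes 88, 13, 26, 4 and 5 of the same kinds. The rule missed the mouse sodium channel pore gene Scn2a, which has the older symbol Scn2a1. All mouse sodium counts and sums leave it out. Inward rectifiers (KCNJ), tandem-pore leak channels (KCNK) and the calcium-activated KCNN channels lack a working voltage sensor or gate on other signals, and the accessory subunits form no pore. Voltage-gated channels open when the membrane potential moves charged segments of the protein. Sodium channels carry the upstroke of the action potential, potassium channels bring the membrane back to rest and set firing rate, and calcium channels couple depolarization to transmitter release and gene expression. The brain expresses most of the family, while epithelia use a smaller set, mainly potassium channels, for salt transport and volume control.

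The deposited unit is RPKM, which divides the reads of a gene by its length and by the library size. Recovered read numbers were 2445904 to 8419288 per library in the human table and 231156 to 8636094 in the mouse table, lowest for mouse genes in lung tumor 1. Human reads made up 22.1% to 75.6% of the reads of the brain tumors, against 96.6% and 41.4% of those of lung tumors 1 and 2. In the mouse table neuron markers summed to 3263 to 5065 RPKM in the brain tumors, against 115 and 60.7 RPKM in lung tumors 1 and 2. Astrocyte markers summed to 9587 to 11956 RPKM in the brain tumors, against 176 and 109 RPKM in the lung tumors, and oligodendrocyte markers to 2423 to 5068 RPKM, against 40.8 and 35.5 RPKM. Lung epithelium markers summed to 17.4 to 54.1 RPKM in the brain tumors and to 948 and 64225 RPKM in lung tumors 1 and 2. Skeletal muscle markers summed to 3.21 to 7.07 RPKM in the brain tumors and to 1089 and 10.7 RPKM in lung tumors 1 and 2, so the host tissue of the lung tumors was not alike.

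The cancer cells carried few channel transcripts, and no human member passed the test between brain and lung tumors. Of the 107 human members, 39 reached 1 RPKM in at least 2 libraries and were tested, 26 potassium, 3 sodium, 9 calcium and 1 HCN gene. A mean of 1 RPKM or more over the 5 libraries was reached by 31.8% of the members, against 54.2% of all human genes. With limma on log2(RPKM + 1) and an adjusted p under 0.05, 0 members were higher and 0 were lower in the brain tumors, where 0.00693% of all tested human genes were higher and 0.0% lower. The share over all genes was larger in the fit without lung tumor 2. That fit leaves 1 lung tumor, whose spread is taken from the brain tumors, so it cannot show what the share rested on. At an unadjusted p under 0.05 there were 7 members, 3 higher and 4 lower, beside 10.5% of all tested genes. Voom on the recovered reads called 0 members as well, with 8 at an unadjusted p under 0.05. The 3 brain tumors lay wholly above both lung tumors for 7 members and wholly below them for 8, or 38.5% of the 39 in either direction, beside 29.7% of all tested genes. The median log2 fold change of the tested members was 0.02, against 0.09 over all tested human genes.

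Potassium channel genes made up most of the summed human level. They gave 198, 169 and 140 of 241, 233 and 178 RPKM in brain tumors 1, 2 and 3, against 249 and 285 of 288 and 349 RPKM in lung tumors 1 and 2. KCNN4, the pore of the intermediate-conductance calcium-activated potassium channel, had the highest mean over the libraries, with 51.6, 45.7 and 17.1 RPKM in brain tumors 1, 2 and 3, against 105 and 76.4 RPKM in lung tumors 1 and 2. KCNF1, a silent pore subunit that alters the gating of KCNB channels, had 40.4, 14.2 and 14.3 RPKM in the brain tumors, against 49.4 and 60.9 RPKM in the lung tumors. For both genes every brain tumor lay below both lung tumors, and brain tumor 3 was the lowest or nearly so. The log2 fold changes were -1.35 (SE 0.50, unadjusted p = 0.0251, limma adjusted p = 0.470) for KCNN4 and -1.39 (SE 0.50, unadjusted p = 0.0224, adjusted p = 0.469) for KCNF1. KCNN4 lies on chromosome 19 from 43766533 to 43780973 and KCNF1 on chromosome 2 from 10911934 to 10914225 of GRCh38, by the RefSeq annotation. The values rested on 447, 301 and 43 recovered reads of KCNN4 in the brain tumors, against 701 and 294 in the lung tumors.

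Among the other Kv pore subunits, KCNH3, a brain channel of the ether-a-go-go family, had 18.5, 24.3 and 12.8 RPKM in the brain tumors, against 20.3 and 12.3 RPKM in the lung tumors. KCNG1, a silent subunit like KCNF1, had 7.52, 1.62 and 1.94 RPKM in the brain tumors, against 4.93 and 17.2 RPKM in the lung tumors. Both genes overlapped between the groups, and lung tumor 2 held the highest KCNG1 value. KCNH2, the rapid delayed rectifier of heart muscle, had 2.79, 4.48 and 3.44 RPKM in the brain tumors, against 5.49 and 1.55 RPKM in the lung tumors, where the single values bracketed the brain tumors. Of 28 Kv pore genes 11 were tested, with log2 fold changes from -1.39 to 0.89.

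The accessory subunit KCNAB2, a cytoplasmic beta subunit with an aldo-keto reductase fold, was among the 4 human members with the lowest p in the higher direction. It had 16.1, 15.7 and 21.3 RPKM in the brain tumors, against 8.27 and 7.88 RPKM in the lung tumors, and the groups did not overlap. Its mean was 17.7 ± 3.11 RPKM over the brain tumors (SD, n = 3) and 8.07 ± 0.277 RPKM over both lung tumors (SD, n = 2), or 1.03 as log2 fold change (SE 0.38, unadjusted p = 0.0262, limma adjusted p = 0.470). The gene lies on chromosome 1 from 5992676 to 6101180 of GRCh38. Mouse Kcnab2 was also the most abundant host member, at 564, 695 and 818 RPKM in the brain tumors, against 133 and 45.2 RPKM in the lung tumors. Whether host reads entered the human count was not tested for this gene. KCNIP2, a calcium-binding subunit of A-type potassium channels, had 2.32, 4.49 and 1.42 RPKM in the brain tumors, against 0.707 and 6.46 RPKM in the lung tumors, with the lung tumors as the lowest and the highest value. An antisense RNA, KCNIP2-AS1, overlaps it, and reads of either strand cannot be told apart without knowing whether the libraries kept the strand.

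KCNU1, a pH-sensitive potassium channel known from sperm, was seen in the brain tumors alone, with 1.83, 0.752 and 1.97 RPKM, against 0 and 0 RPKM in the lung tumors. These values rested on 16, 5 and 5 recovered reads in the brain tumors, against 0 and 0 in the lung tumors. Against a floor of 3 reads in each lung library the brain mean was at least 2.50-fold higher, with an unadjusted p of 0.0180 and a limma adjusted p of 0.463. Its mouse namesake Kcnu1 had 1.68, 2.42 and 2.12 RPKM in the brain tumors, against 0 and 0.863 RPKM in the lung tumors, and whether reads were shared between the species was not tested.

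Among the inward rectifiers 5 of 9 genes were tested. KCNJ12, a strong rectifier that holds the resting potential in muscle, had 2.37, 0.959 and 1.26 RPKM in the brain tumors, against 4.04 and 13.0 RPKM in the lung tumors. All brain tumors lay below both lung tumors, and lung tumor 2 was well above lung tumor 1. Its log2 fold change was -1.77 (SE 0.55, unadjusted p = 0.0118, limma adjusted p = 0.454), the lowest p of any human member. The gene lies on chromosome 17 from 21376357 to 21419870 of GRCh38, and KCNJ18 is a near-identical copy, so the source of these reads is uncertain. KCNJ11, the pore of the ATP-sensitive potassium channel, had 6.08, 7.02 and 5.12 RPKM in the brain tumors, against 6.71 and 5.34 RPKM in the lung tumors. KCNJ14, another strong rectifier, had 2.50, 2.98 and 6.68 RPKM in the brain tumors, against 5.60 and 2.32 RPKM in the lung tumors. KCNJ11 and KCNJ14 overlapped between the groups, with log2 fold changes of 0.01 and 0.02. KCNK1, a tandem-pore leak channel of kidney and other epithelia, had 13.3, 9.58 and 15.1 RPKM in the brain tumors, against 9.57 and 41.0 RPKM in the lung tumors. Its high mean in the lung tumors came from lung tumor 2, since lung tumor 1 lay at the lowest brain value.

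Sodium channel genes were scarce in the cancer cells, and 3 of 10 were tested. SCN8A, a pore subunit of the axon initial segment, had 1.38, 2.18 and 0.793 RPKM in the brain tumors, against 0.462 and 1.03 RPKM in the lung tumors. SCN3B, a beta subunit, had 1.02, 1.42 and 0.220 RPKM in the brain tumors, against 0.411 and 1.00 RPKM in the lung tumors. SCN8A and SCN3B overlapped between the groups, with log2 fold changes of 0.47 (limma adjusted p = 0.687) and 0.11 (adjusted p = 0.942).

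Among calcium channel genes of the cancer cells, accessory subunits had the highest means. CACNB3, a cytoplasmic beta subunit that brings the pore to the membrane, had 8.95, 10.96 and 4.27 RPKM in the brain tumors, against 9.18 and 12.9 RPKM in the lung tumors. CACNB1, the beta subunit of skeletal muscle, had 5.85, 12.1 and 6.74 RPKM in the brain tumors, against 8.07 and 7.46 RPKM in the lung tumors. Both overlapped between the groups. CACNB2, the main beta subunit of heart, had 0.356, 0.0935 and 0.491 RPKM in the brain tumors, against 1.33 and 2.64 RPKM in the lung tumors. Every brain tumor lay below both lung tumors for CACNB2, with a log2 fold change of -1.16 (SE 0.44, unadjusted p = 0.0277, limma adjusted p = 0.470). CACNB2 lies on chromosome 10 from 18140424 to 18543557 of GRCh38 and rested on 10, 2 and 4 recovered reads in the brain tumors, against 29 and 33 in the lung tumors.

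CACNA2D1, an extracellular alpha2delta subunit bound by gabapentin, had 3.53, 11.5 and 5.74 RPKM in the brain tumors, against 1.34 and 2.81 RPKM in the lung tumors. The brain tumors lay above both lung tumors, with a log2 fold change of 1.28 (SE 0.54, unadjusted p = 0.0448, limma adjusted p = 0.474). It lies on chromosome 7 from 81946444 to 82443956 of GRCh38, and the value rested on 17, 42 and 8 recovered reads in the brain tumors, against 5 and 6 in the lung tumors. CACNA2D2, its relative, had 4.73, 2.82 and 3.21 RPKM in the brain tumors, against 1.11 and 3.58 RPKM in the lung tumors, with overlap. Among pore subunits, the T-type gene CACNA1G had 0.744, 1.202 and 1.23 RPKM in the brain tumors, against 0.219 and 0.190 RPKM in the lung tumors. Every brain value of CACNA1G exceeded both lung values, at a log2 fold change of 0.76 (unadjusted p = 0.0965, adjusted p = 0.512). Host Cacna2d1 and Cacna1g were also higher in the brain tumors, and whether reads were shared between the species was not tested. The other T-type gene, CACNA1H, had 3.48, 4.13 and 1.42 RPKM in the brain tumors, against 3.00 and 2.38 RPKM in the lung tumors, with overlap. CACNA1A, the P/Q-type pore of presynaptic terminals, had 1.66, 1.79 and 1.04 RPKM in the brain tumors, against 2.54 and 3.74 RPKM in the lung tumors. Its brain values all lay below the lung values, at a log2 fold change of -0.73 (adjusted p = 0.537). The CACNA1A values rested on 11, 9 and 2 recovered reads in the brain tumors, against 13 and 11 in the lung tumors.

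Of the HCN genes, HCN2 was the 1 tested in the human table, with 2.45, 2.55 and 2.82 RPKM in the brain tumors, against 4.08 and 5.198 RPKM in the lung tumors. Its brain values lay below both lung values, at a log2 fold change of -0.64 (limma adjusted p = 0.557). The 7 human antisense or overlapping RNAs were all below the level tested.

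**Figure D1:**
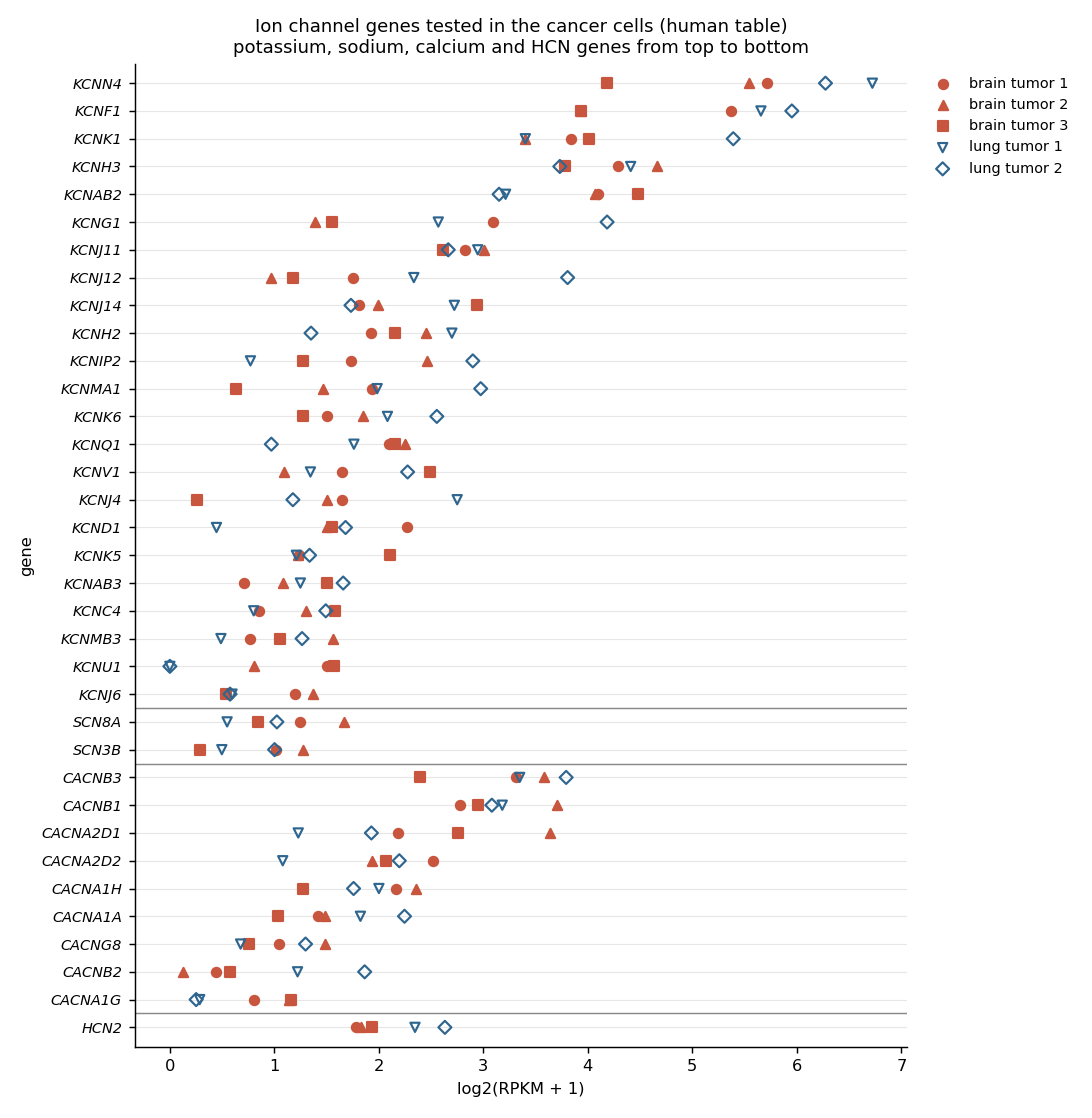
Level of 35 of the 39 tested human channel genes in each tumor as log2(RPKM + 1), with potassium, sodium, calcium and HCN genes from top to bottom and by mean level within a class. Filled symbols are the 3 brain tumors and open symbols the 2 lung tumors. KCNN4 and KCNF1 lie to the left in the brain tumors, KCNAB2 and CACNA2D1 to the right, and most genes overlap.

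In the host tissue most tested channel genes were higher in the brain tumors. Of the 136 mouse members, 113 were tested, and 73 rose and 2 fell in the brain tumors at a limma adjusted p under 0.05, where 14.3% of all tested mouse genes rose and 8.12% fell, 22.4% in all. The brain tumors lay wholly above both lung tumors for 89 members and wholly below them for 6, beside 30.0% and 26.2% of all tested genes, 56.1% in either direction. The median log2 fold change was 3.12, against 0.08 over all tested mouse genes, and 2.81 with the genes at 0 in both lung tumors set to their lower bound. A member could be tested on its brain values alone, so the counts describe members detected in these tumors. By class, 47 of 76 tested potassium genes rose and 2 fell, 5 of 9 sodium genes, 18 of 23 calcium genes and 3 of 4 HCN genes rose. Summed over all members of a class, sodium channel genes gave 579, 686 and 899 RPKM in brain tumors 1, 2 and 3, against 104 and 225 RPKM in lung tumors 1 and 2. Calcium channel genes gave 697, 925 and 971 RPKM in the brain tumors, against 65.7 and 98.8 RPKM in the lung tumors.

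The RPKM summed over all members was higher in the brain tumors, as were the neuron, astrocyte and oligodendrocyte markers given above. Over brain tumors 1, 2 and 3 this sum was 3508, 4068 and 4798 RPKM, an order that only the neuron markers shared. In lung tumors 1 and 2 the member sum was 455 and 724 RPKM, while each marker sum was lower in lung tumor 2. Fewer cells of a type and less RNA per cell cannot be told apart. In lung tumor 1, the library with 231156 mouse reads, 66 of the 113 tested members were at 0, and 15 were at 0 in both lung tumors. In lung tumor 2, with 5295159 mouse reads, 18 of them were at 0. Without lung tumor 1 the fit called 76 members, 71 higher and 5 lower, beside 29.8% of all tested mouse genes. Without brain tumors 1, 2 and 3 in turn it called 53, 48 and 48 members, with 0 lower each time, beside 9.84%, 7.74% and 8.39% of all tested genes. Without lung tumor 2 it called 97 members beside 53.6% of all tested genes, where the spread of the single lung tumor left is taken from the brain tumors. Fold changes on the log2(RPKM + 1) scale understate the change of genes near 0.

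**Figure D2:**
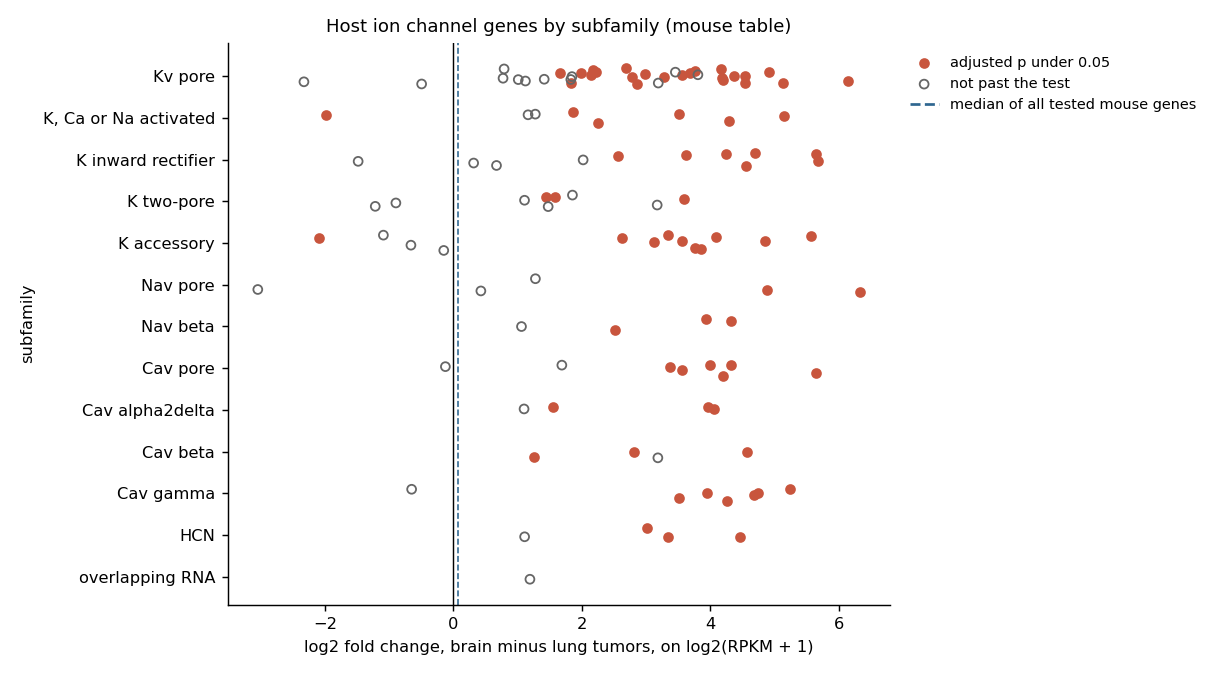
Log2 fold change, brain minus lung tumors, of the 113 tested mouse channel genes by subfamily, on the log2(RPKM + 1) scale. Filled points passed an adjusted p of 0.05, open points did not, and the dashed line is the median of all tested mouse genes at 0.08. Most subfamilies lie to the right of the line, with the called lower genes Kcnn4 and Kcne3 on the left.

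Among host Kv pore subunits, 23 of 35 tested genes rose and 0 fell. Kcnc1, a fast delayed rectifier of quickly firing interneurons, had 57.9, 39.5 and 121 RPKM in the brain tumors, against 1.34 and 0.527 RPKM in the lung tumors. Its mean was 72.8 ± 42.7 RPKM over the brain tumors (SD, n = 3) and 0.931 ± 0.572 RPKM over both lung tumors (SD, n = 2), or 5.13 as log2 fold change (limma adjusted p = 0.00307, SE 0.56). Kcnd3, the pore of an A-type current, had 31.2, 46.6 and 43.2 RPKM in the brain tumors, against 0 and 0.832 RPKM in the lung tumors. Every brain tumor exceeded both lung tumors for both genes, and Kcnc1 was highest in brain tumor 3. The log2 fold change of Kcnd3 was 4.91 (adjusted p = 0.00209).

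Of 13 tested accessory potassium channel subunits 9 rose and 1 fell. Kcnip2, a calcium-binding partner of A-type channels, had 53.9, 115 and 66.0 RPKM in the brain tumors, against 0 and 1.52 RPKM in the lung tumors. Kcnip4, its relative, had 27.1, 23.6 and 43.0 RPKM in the brain tumors, against 0 and 0.171 RPKM in the lung tumors. Kcnab1, a beta subunit that speeds inactivation, had 27.7, 29.9 and 54.6 RPKM in the brain tumors, against 1.75 and 0.691 RPKM in the lung tumors. The groups lay apart for all 3, with log2 fold changes of 5.57, 4.85 and 4.09 in that order and limma adjusted p of 0.00369 or less. Kcne3, which holds KCNQ1 open in epithelia, went the other way, with 0.348, 0.577 and 0.109 RPKM in the brain tumors, against 8.14 and 2.50 RPKM in the lung tumors. Its log2 fold change was -2.09 (SE 0.53, adjusted p = 0.0403), and it rested on 1, 3 and 1 recovered reads in the brain tumors, against 2 and 14 in the lung tumors. Without brain tumor 1, 2 or 3 its adjusted p was 0.123, 0.115 and 0.144, and it was 0.0551 at a pseudocount of 0.1, 0.0839 with no filter and 0.161 with a replicate block.

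Of 8 channels activated by calcium, sodium or other internal signals, 5 rose and 1 fell. Kcnt1, a sodium-activated potassium channel, had 26.2, 42.7 and 36.5 RPKM in the brain tumors, against 0 and 0 RPKM in the lung tumors, at least 9.60-fold higher against the 3-read floor averaged over both lung libraries (limma adjusted p = 0.00140). Kcnn2, a small-conductance channel of the afterhyperpolarization, had 25.3, 24.3 and 20.05 RPKM in the brain tumors, against 0 and 0.502 RPKM in the lung tumors. Kcnma1, the large-conductance channel gated by voltage and calcium together, had 12.3, 18.0 and 20.1 RPKM in the brain tumors, against 1.14 and 0.0996 RPKM in the lung tumors. Kcnn2 and Kcnma1 had no overlap between groups and log2 fold changes of 4.30 and 3.51. Kcnn4, which immune cells and epithelia use, had 0.371, 0.205 and 0.117 RPKM in the brain tumors, against 4.33 and 3.42 RPKM in the lung tumors, and so fell (log2 fold change -1.99, SE 0.37, adjusted p = 0.0156). Its values rested on 1, 1 and 1 recovered reads in the brain tumors, against 1 and 18 in the lung tumors, beside far more human KCNN4 reads, and whether reads were shared between the species was not tested. Without brain tumor 1, 2 or 3 the adjusted p of Kcnn4 was 0.0602, 0.0778 and 0.068, and with a replicate block 0.129. The blood and immune markers, which are not all of 1 cell type, summed to 42.0 to 393 RPKM in the brain tumors and to 2848 and 4319 RPKM in the lung tumors. Most of that sum was 1 gene, Lyz2, with 2777 and 4215.5 RPKM in lung tumors 1 and 2.

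Inward rectifiers rose in 7 of 11 tested genes and fell in 0. Kcnj10, the rectifier of astrocytes that clears potassium around neurons, had 219, 133 and 194 RPKM in the brain tumors, against 5.46 and 0.992 RPKM in the lung tumors. Kcnj11, the ATP-sensitive pore, had 79.5, 64.9 and 100.04 RPKM in the brain tumors, against 0 and 1.497 RPKM in the lung tumors. Kcnj9, a subunit of channels opened by G proteins, had 36.0, 34.2 and 21.7 RPKM in the brain tumors, against 0 and 0.408 RPKM in the lung tumors. The groups did not overlap for these genes, with log2 fold changes of 5.64 (SE 0.56, limma adjusted p = 0.00244), 5.68 and 4.70 in the order given. Of 9 tested leak channels 3 rose and 0 fell. Kcnk9, an acid-sensitive leak channel, had 10.1, 9.06 and 14.7 RPKM in the brain tumors, against 0 and 0 RPKM in the lung tumors, at least 2.07-fold higher (adjusted p = 0.00360). Kcnk4, which opens on membrane stretch, had 2.31, 1.51 and 2.78 RPKM in the brain tumors, against 0 and 0.108 RPKM in the lung tumors (log2 fold change 1.58, adjusted p = 0.0361). Kcnk10, a related stretch-sensitive channel, had 1.71, 1.65 and 1.83 RPKM in the brain tumors, against 0 and 0 RPKM in the lung tumors, below the floor of 3 reads, so no fold is given (adjusted p = 0.0338). The call of Kcnk4 was lost without brain tumor 1, 2 or 3 (adjusted p = 0.106, 0.0817 and 0.104), as was that of Kcnk10 (0.0943, 0.101 and 0.0917), and quantile normalization gave 0.275 and 0.279 and a replicate block 0.228 and 0.223. Kcnk4 was also lost with no filter (0.0633) and with voom (0.0646).

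Of 10 host genes for proteins that anchor or join potassium channels, 9 rose and 0 fell, with a median log2 fold change of 5.01. Dlg4, a synaptic scaffold, had 575, 863 and 663 RPKM in the brain tumors, against 66.2 and 82.1 RPKM in the lung tumors. Adam22, a receptor that clusters channels through LGI proteins, had 239, 282 and 345 RPKM in the brain tumors, against 11.2 and 27.4 RPKM in the lung tumors. Cntnap2, which places potassium channels beside the nodes of axons, had 115, 150.0 and 146 RPKM in the brain tumors, against 3.81 and 4.01 RPKM in the lung tumors. The groups lay apart for all 3 genes. In the cancer cells 5 of these genes were tested and 0 passed, with a median log2 fold change of 0.96 and 0 at an unadjusted p under 0.05.

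Of 5 tested host sodium channel pore genes 2 rose, and Scn8a had the largest log2 fold change of any mouse member. Scn8a, the main pore subunit of the adult axon initial segment, had 204, 303 and 354 RPKM in the brain tumors, against 4.27 and 1.31 RPKM in the lung tumors. Its mean was 287 ± 75.9 RPKM over the brain tumors (SD, n = 3) and 2.79 ± 2.09 RPKM over both lung tumors (SD, n = 2), or 6.33 as log2 fold change (limma adjusted p = 0.00126, SE 0.47). Scn1a, the pore subunit on which inhibitory interneurons depend, had 34.7, 30.2 and 58.7 RPKM in the brain tumors, against 0.887 and 0 RPKM in the lung tumors, at a log2 fold change of 4.88 (adjusted p = 0.00257). Both genes were lowest in the lung tumors without overlap. Scn3a and Scn7a were tested and did not pass. Scn2a, under its older symbol Scn2a1, lay outside the symbol rule and is not among these genes.

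Of the host sodium channel beta subunits, 3 of 4 rose. Scn2b, which links to the pore by a disulfide bond, had 40.5, 45.5 and 39.7 RPKM in the brain tumors, against 0.989 and 1.30 RPKM in the lung tumors. Scn4b, which enables resurgent current, had 23.8, 26.8 and 38.9 RPKM in the brain tumors, against 1.71 and 0.449 RPKM in the lung tumors. All brain values of Scn2b and Scn4b exceeded the lung values, with log2 fold changes of 4.32 (limma adjusted p = 0.00141) and 3.93 (adjusted p = 0.00382).

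Of 10 host genes for proteins that anchor or modulate sodium channels, 9 rose and 0 fell, with a median log2 fold change of 4.90. Ank2, an ankyrin, had 224, 276 and 232 RPKM in the brain tumors, against 5.03 and 2.50 RPKM in the lung tumors. Tnr, a matrix protein of nodes and perineuronal nets, had 175, 298 and 204 RPKM in the brain tumors, against 5.04 and 1.33 RPKM in the lung tumors. Nfasc, an adhesion protein of the axon initial segment, had 133, 104 and 107 RPKM in the brain tumors, against 6.21 and 0.599 RPKM in the lung tumors. In the cancer cells 5 of these genes were tested and 0 passed, 2 of them at an unadjusted p under 0.05. Human ANK3, the ankyrin that gathers sodium channels, was picked after its values were seen and had 38.3, 61.5 and 22.8 RPKM in the brain tumors, against 3.24 and 8.82 RPKM in the lung tumors, without overlap (log2 fold change 2.59, limma adjusted p = 0.304). Human ANK2 had 6.73, 21.8 and 21.9 RPKM in the brain tumors, against 3.18 and 4.07 RPKM in the lung tumors (log2 fold change 1.79, adjusted p = 0.454). Host Ank3 and Ank2 were higher in the brain tumors too, and whether reads were shared between the species was not tested. The log2 fold changes of the other tested genes of the list were 0.66 for FGF11, 0.40 for FGF12 and 0.20 for SPTBN4, and all 3 overlapped between the groups.

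The sodium-potassium pump maintains the gradients that these channels use. In the host 6 of its 13 genes rose and 1 fell. Atp1b1, a widely expressed beta subunit, had 1851, 1957 and 2926 RPKM in the brain tumors, against 60.9 and 557 RPKM in the lung tumors. Atp1b2, a beta subunit of glia, had 2224, 1355 and 1545 RPKM in the brain tumors, against 67.9 and 29.4 RPKM in the lung tumors. The gene that fell was Fxyd5, a regulator of the pump in epithelia, picked as the 1 call in that direction, with 55.7, 39.7 and 16.7 RPKM in the brain tumors, against 496 and 172 RPKM in the lung tumors. In the cancer cells 6 pump genes were tested and 0 passed, with 3 at an unadjusted p under 0.05. Human FXYD5, picked after its values were seen, had 106, 71.9 and 119 RPKM in the brain tumors, against 351 and 425 RPKM in the lung tumors (log2 fold change -1.98, limma adjusted p = 0.304). Host Fxyd5 went the same way, and whether reads were shared between the species was not tested.

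Host calcium channel pore genes rose in 6 of 8 tested cases. Cacna1i, a T-type pore of thalamic neurons, had 89.7, 146 and 118 RPKM in the brain tumors, against 0 and 4.41 RPKM in the lung tumors. Cacna1e, the R-type pore, had 23.6, 56.4 and 38.9 RPKM in the brain tumors, against 0.931 and 0.898 RPKM in the lung tumors. Cacna1b, the N-type pore that drives transmitter release, had 21.8, 30.3 and 22.6 RPKM in the brain tumors, against 0 and 0.932 RPKM in the lung tumors. The brain tumors stood above both lung tumors for each, and Cacna1i had the largest log2 fold change of the calcium class, 5.65 (SE 0.73, limma adjusted p = 0.00505). Those of Cacna1e and Cacna1b were 4.32 and 4.20. The 2 tested pore genes without a call were the L-type genes Cacna1c and Cacna1d, picked here after their values were seen, at 9.47, 16.0 and 14.0 RPKM for Cacna1c and 4.02, 7.27 and 4.27 RPKM for Cacna1d in the brain tumors. In the lung tumors Cacna1c had 0.633 and 10.4 RPKM and Cacna1d 3.80 and 7.99 RPKM, so both overlapped between the groups.

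Accessory calcium channel subunits of the host rose in 3 of 4 alpha2delta genes, 3 of 4 beta genes and 6 of 7 gamma genes. Cacna2d2 had 14.8, 12.8 and 21.2 RPKM in the brain tumors, against 0 and 0.0427 RPKM in the lung tumors. Cacna2d3 had 12.8, 19.4 and 16.7 RPKM in the brain tumors, against 0 and 0.2002 RPKM in the lung tumors. Cacna2d1, the drug-binding subunit, had 34.3, 49.9 and 34.3 RPKM in the brain tumors, against 10.4 and 15.2 RPKM in the lung tumors. The log2 fold changes of 4.05, 3.96 and 1.55 in that order passed the test, and that of Cacna2d1 was lost without brain tumor 1, 2 or 3 (limma adjusted p = 0.101, 0.15 and 0.0962) and with a replicate block (0.126). Cacnb4, a beta subunit of cerebellum and thalamus, had 21.1, 26.7 and 26.2 RPKM in the brain tumors, against 0 and 0.163 RPKM in the lung tumors. Cacnb1 had 38.3, 56.0 and 27.7 RPKM in the brain tumors, against 2.37 and 8.73 RPKM in the lung tumors. Cacnb3 had 36.6, 52.6 and 34.8 RPKM in the brain tumors, against 16.9 and 15.8 RPKM in the lung tumors. The groups did not overlap for any of the 3, at log2 fold changes of 4.57, 2.81 and 1.26. Cacnb1 lost its call without brain tumor 1, 2 or 3 (adjusted p = 0.0865, 0.102 and 0.0708), and Cacnb3 did too (0.13, 0.193 and 0.106), as well as with no filter (0.0589), without a trend (0.0549) and with a replicate block (0.184).

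The gamma genes that rose are better known as AMPA receptor partners than as calcium channel subunits. Cacng7 had 121, 105 and 168 RPKM in the brain tumors, against 2.79 and 5.26 RPKM in the lung tumors, at a log2 fold change of 4.74 (limma adjusted p = 0.00150, SE 0.38). Cacng3 had 26.8, 59.0 and 31.3 RPKM in the brain tumors, against 0 and 0 RPKM in the lung tumors, at least 5.41-fold higher (adjusted p = 0.00207). Cacng4 had 36.6, 25.99 and 20.8 RPKM in the brain tumors, against 0 and 0.189 RPKM in the lung tumors, at a log2 fold change of 4.69. All brain values of these genes lay above all lung values. The skeletal muscle subunits Cacng1 and Cacna1s, picked after their values were seen, were not tested, and in lung tumor 1 they had 6.75 and 2.31 RPKM from 2 and 3 recovered reads. In the brain tumors Cacng1 gave 0, 0.159 and 0 RPKM and Cacna1s 0, 0.291 and 0.124 RPKM, beside the skeletal muscle markers of lung tumor 1 given above.

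Of 14 genes for proteins that bind or regulate calcium channels, 13 were tested in the host, and 6 rose and 1 fell. Calm3 and Calm2 encode the same protein, calmodulin. Calm3 rose, with 1567, 1587 and 1848 RPKM in the brain tumors, against 429.6 and 426 RPKM in the lung tumors. Calm2 had 426, 529 and 684 RPKM in the brain tumors, against 294 and 221 RPKM in the lung tumors (limma adjusted p = 0.0810). The groups lay apart for both, although Calm2 did not pass the test. The 1 gene that fell, named for that, was Rem1, a small GTPase that inhibits calcium channels, with 0.998, 0.414 and 0.157 RPKM in the brain tumors, against 11.7 and 14.0 RPKM in the lung tumors (adjusted p = 0.00570). In the cancer cells 9 of these genes were tested and 0 passed, with 1 at an unadjusted p under 0.05.

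Host HCN genes carry the pacemaker current of heart and neurons, and 3 of 4 rose. Hcn2 had 76.1, 42.5 and 62.3 RPKM in the brain tumors, against 4.02 and 0.471 RPKM in the lung tumors. Hcn3 had 12.2, 14.8 and 10.5 RPKM in the brain tumors, against 0 and 0.722 RPKM in the lung tumors. The groups did not overlap for Hcn2 and Hcn3, with log2 fold changes of 4.46 (SE 0.61, limma adjusted p = 0.00597) and 3.35 (adjusted p = 0.00548). The overlapping RNA Kcnmb4os2 had 1.10, 1.67 and 1.13 RPKM in the brain tumors, against 0 and 0 RPKM in the lung tumors, below the floor of 3 reads, and did not pass (adjusted p = 0.0626). It passed at pseudocounts of 0.1 and 0.5 (0.0302 and 0.0479) and without lung tumor 2 (0.04).

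Of 7 genes for other voltage-sensing or leak channels and their subunits, which the symbol rule left out, 4 rose and 1 fell in the host. Unc80, a subunit of the sodium leak channel complex, had 242, 282 and 415 RPKM in the brain tumors, against 0 and 2.22 RPKM in the lung tumors. Fam155a, of the same complex, had 41.2, 46.0 and 65.2 RPKM in the brain tumors, against 0 and 0 RPKM in the lung tumors. Tpcn1, a channel of endosomes and lysosomes, had 34.5, 30.4 and 21.8 RPKM in the brain tumors, against 17.5 and 45.5 RPKM in the lung tumors. Unc80 and Fam155a lay apart between the groups, and Tpcn1 overlapped. In the cancer cells 3 of the genes were tested and 0 passed, with 0 at an unadjusted p under 0.05.

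Host channel genes also differed among the brain tumors. Of 102 members at 1 RPKM or more in all brain tumors, 13 varied more than 3-fold, or 12.7%, against 7.36% of 13157 mouse genes at that level. Members were highest in brain tumor 1 for 15 genes, in brain tumor 2 for 50 and in brain tumor 3 for 37. Of all genes at that level, 40.6% were highest in brain tumor 1, 29.2% in brain tumor 2 and 30.2% in brain tumor 3. The most variable was Kcng4, a silent Kv subunit, with 12.1, 1.68 and 40.6 RPKM in brain tumors 1, 2 and 3. Kcnc1 had 57.9, 39.5 and 121 RPKM, lowest in brain tumor 2 and highest in brain tumor 3, as Kcng4 was. Kcnf1 had 8.88, 24.7 and 5.66 RPKM and Kcnj4, a strong rectifier of forebrain neurons, had 15.6, 54.5 and 21.2 RPKM, both highest in brain tumor 2. Neuron markers summed to 3263, 4018 and 5065 RPKM and oligodendrocyte markers to 5068, 2423 and 3225 RPKM in the same order. Microglia markers summed to 337, 305 and 68.0 RPKM and blood and immune markers to 393, 269 and 42.0 RPKM, both lowest in brain tumor 3. Most of the blood and immune sum was Lyz2, with 370, 252 and 35.3 RPKM. Endothelial markers summed to 175, 135 and 84.6 RPKM. Of the 13 genes, Kcnj8, Kcnk6, Kcnn3, Kcnf1, Kcnv1 and Kcng1 were lowest in brain tumor 3. These genes, chosen by their spread, have no test, and the part that these cell types had in it was not tested.

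**Figure D3:**
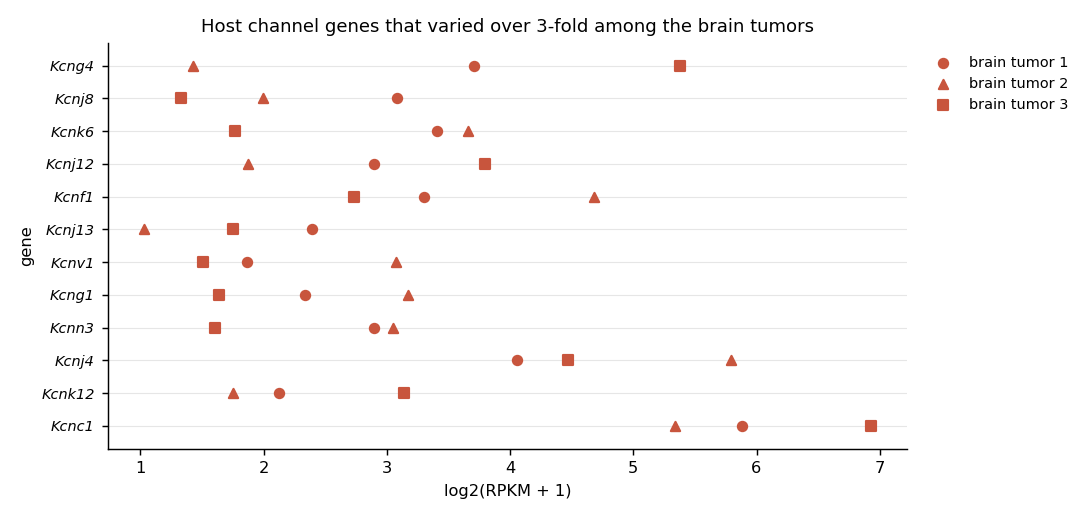
Level of 12 of the 13 mouse channel genes that varied more than 3-fold among the brain tumors, as log2(RPKM + 1), with 1 symbol per brain tumor. Kcng4, Kcnj12, Kcnk12 and Kcnc1 were highest in brain tumor 3, while Kcnf1, Kcnv1, Kcng1, Kcnn3, Kcnj4 and Kcnk6 were highest in brain tumor 2.

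A smaller set of host channel genes was abundant in lung tumor 2. In that library, with 5295159 mouse reads, 17 members reached 10 RPKM, and they were picked by that level. In lung tumor 1, 8 members reached it. Some of the 17, such as Kcnab2, Cacnb3 and Cacna2d1, were called higher in the brain tumors. Scn7a, a sodium-sensing relative of the sodium channels, had 0.933, 0.651 and 0.850 RPKM in the brain tumors, against 1.72 and 80.7 RPKM in the lung tumors. Kcnq1, a pore of heart and epithelial potassium currents, had 13.5, 14.2 and 5.40 RPKM in the brain tumors, against 28.7 and 106 RPKM in the lung tumors. Kcnj15, an inward rectifier of kidney and other epithelia, had 0.409, 0.226 and 0 RPKM in the brain tumors, against 0.956 and 24.9 RPKM in the lung tumors. Lung tumor 2 was above every brain tumor for the 3 genes, and so was lung tumor 1, by little for Scn7a and Kcnj15. Kcnq1 had a log2 fold change of -2.33 (limma adjusted p = 0.0600) and Scn7a one of -3.04 (adjusted p = 0.158), while Kcnj15 was not tested. The antisense RNA Kcnq1ot1 overlaps Kcnq1, and strands cannot be told apart here. Scn3b had 48.3, 90.4 and 71.1 RPKM in the brain tumors, against 8.39 and 115 RPKM in the lung tumors, so that the lung tumors lay on both sides of the brain values. Lung tumor 1 gave 1 to 3 recovered reads of Scn7a, Kcnq1, Kcnj15 and Scn3b. Heart muscle markers summed to 10.02 to 18.1 RPKM in the brain tumors and to 39.1 and 572 RPKM in lung tumors 1 and 2. Endothelial markers summed to 84.6 to 175 RPKM in the brain tumors and to 106 and 1338 RPKM in the lung tumors, and lung epithelium markers, given above, were also highest in lung tumor 2. Blood and immune markers summed to 42.0 to 393 RPKM in the brain tumors and to 2848 and 4319 RPKM in the lung tumors, most of it Lyz2 in every library. Pericyte and smooth muscle markers summed to 108 to 228 RPKM in the brain tumors and to 1246 and 356 RPKM in the lung tumors, highest in lung tumor 1. Of the lung tumors, Rgs5, Tagln, Acta2 and Pdgfrb were higher in lung tumor 1, and Myh11 and Cnn1 in lung tumor 2. The part of these cell types in the channel levels was not tested.

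**Figure D4:**
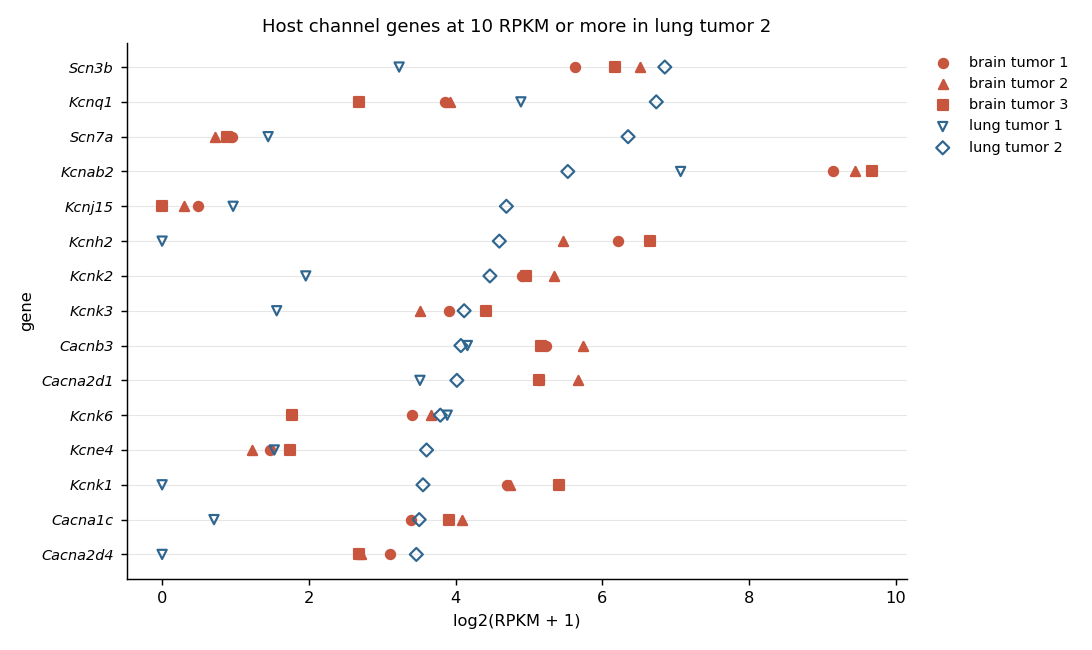
Level of 15 of the 17 mouse channel genes at 10 RPKM or more in lung tumor 2, as log2(RPKM + 1), with the highest in lung tumor 2 on top. Filled symbols are the 3 brain tumors and open symbols the 2 lung tumors. Kcnq1, Scn7a and Kcnj15 lie to the right in lung tumor 2, and Kcnab2 lies to the right in the brain tumors.

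Cancer cell and host genes of the same symbol could be set side by side for 97 pairs, of which 36 were tested in both tables. The mouse gene was higher in the brain tumors for 33 of the 36 pairs and the human gene for 19, counting the sign of the log2 fold change alone. In 8 pairs the groups did not overlap and both genes lay on the same side, and in 7 pairs they lay on opposite sides, or 22.2% and 19.4% of the 36. Of 10196 same-symbol pairs over all genes tested in both tables, 11.9% lay on the same side and 5.62% on opposite sides without overlap. Both shares depend on the host, where 84.1% of tested members did not overlap, against 56.1% of all tested mouse genes. Among the 8 pairs were those of KCNN4, KCNK6, CACNA1G, KCNU1, KCNAB2 and CACNA2D1. KCNMA1 was one of the 7, with 2.83, 1.75 and 0.549 RPKM in the brain tumors, against 2.95 and 6.86 RPKM in the lung tumors, where host Kcnma1 went the other way as given above. KCNQ1 was another, with 3.27, 3.74 and 3.44 RPKM in the brain tumors, against 2.39 and 0.960 RPKM in the lung tumors. These pairs were found after the values were seen, the libraries are shared between the tables, and the difference between species was not tested.

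**Figure D5:**
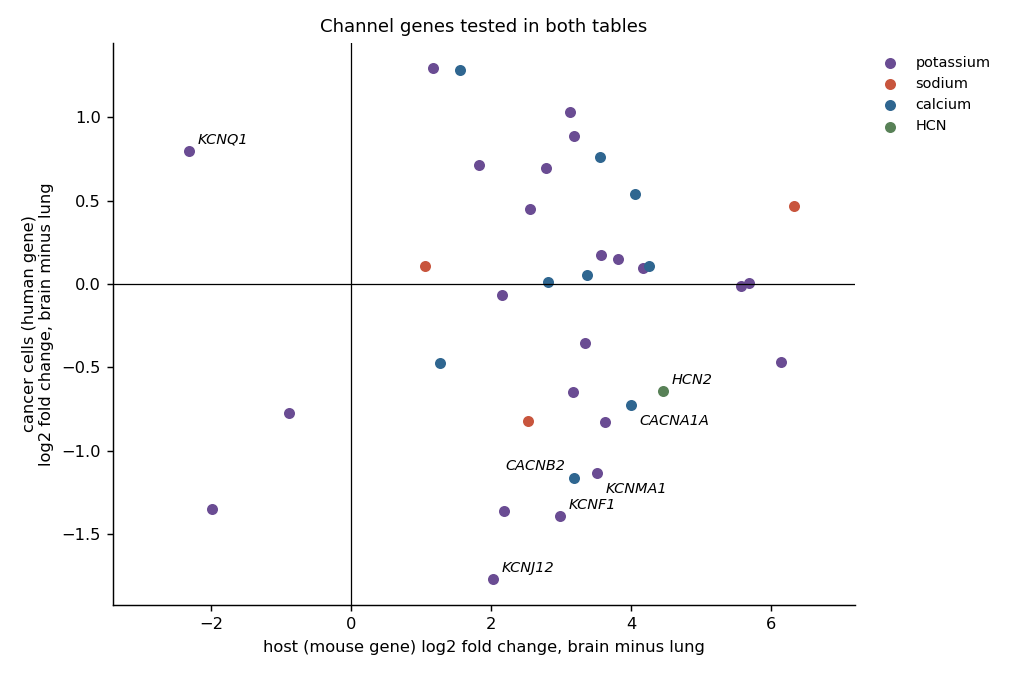
Log2 fold change, brain minus lung tumors, of the human gene (vertical axis) against that of the mouse gene of the same symbol (horizontal axis) for the 36 pairs tested in both tables, on the log2(RPKM + 1) scale and coloured by class. The 7 named pairs lay on opposite sides without overlap between the groups. Most pairs lie at the right, where the host gene was higher in the brain tumors, while the human values spread from -1.77 to 1.29.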

How the data were processed

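RNA sequencing of 3 brain and 2 lung tumors gave 1 RPKM table per species, deposited by the authors with 25524 human and 24628 mouse genes. Human values are on hg38 (GRCh38) and mouse values on mm10 (GRCm38), per the submitters' processing notes. Not given in the sources used here are the aligner, the counter, the gene lengths, strandedness and the split of reads by species, so levels of different genes are not closely compared. The library number in each sample's description gave its column, and 0 columns stayed unmapped.

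Whole reads were recovered for 100.0% of genes in each table (tolerance 1e-06 reads), up to a common divisor, so read numbers are lower bounds. The test took 14423 human and 15431 mouse genes that reached 1 RPKM in at least 2 libraries. Limma 3.58.1 in R 4.3.3 fitted log2(RPKM + 1) (brain minus lung, all 5 libraries, eBayes with an intensity trend), with Benjamini-Hochberg adjustment over all tested genes of a species and calls at an adjusted p under 0.05. No count model was the main test, since RPKM are not counts, and voom on recovered reads was an alternative. The script was tested on simulated data. Python 3.11.15, pandas 2.3.3 and numpy 2.4.6 made the other tables. Replicate numbers pair no tumors in the labels. A fold against 2 lung libraries at 0 is a lower bound, from the mean of their 3-read levels, which covers counting error only.

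Members and lists were chosen with earlier results of these data known. In the human table the named genes were the tested members with the highest mean RPKM (12 potassium, 4 sodium, 6 calcium; 3 sodium genes were tested) and in each direction the 4 of lowest unadjusted p. In the mouse table they were, per subfamily, up to 3 called higher and 2 called lower members with the largest fold change, or the most abundant where 0 were called. Partner lists were named by the 3 highest mean RPKM in the host. Human loci were matched by symbol to RefSeq genes of GRCh38 for all 24 named members. Some genes that these rules name are counted but not reported here by name, in text or figures. Alternatives were quantile normalization, median-ratio scaling, voom, no intensity trend, a filter at 5 RPKM or none, pseudocounts of 0.1 and 0.5, a replicate block and leaving out each library.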

Additional observations from a re-analysis of the deposited data

Results flagged for a closer look

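Groups of 3 and 2 libraries are too small for a test of single outlying samples. For 7 gene pairs the human and the mouse gene of the same symbol had opposite directions, with every brain tumor on one side of both lung tumors in each table. That is 19.4% of the 36 pairs tested in both tables, beside 5.62% of 10196 same-symbol pairs over all genes. Host genes were higher in the brain tumors for 33 of the 36 pairs, so this share depends on the host result given above. The difference between the species was not tested, and every value is a log2 fold change, brain minus lung tumors, on the log2(RPKM + 1) scale. KCNJ12 gave -1.77 in the cancer cells and 2.02 in the host, and KCNF1 gave -1.39 and 2.98. CACNB2 gave -1.16 in the cancer cells and 3.18 in the host, and KCNMA1 gave -1.14 and 3.51. CACNA1A gave -0.73 in the cancer cells and 4.0 in the host, and HCN2 gave -0.64 and 4.46. Human CACNA1A rested on the few reads given above, and human KCNMA1 had 5 recovered reads in brain tumor 3. KCNQ1 was the 1 pair with the human gene higher and the host gene lower in the brain tumors, at 0.8 and -2.33. None of the 7 human genes passed the test, and of the mouse genes Kcnf1, Kcnma1, Cacna1a and Hcn2 did.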

How the results depend on the processing

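Human members called stayed at 0 under all 14 alternatives, with 3 to 9 at an unadjusted p under 0.05. Alternatives that kept both lung tumors called 0% to 0.79% of all tested human genes. The share was larger without lung tumor 2, a fit that leaves 1 lung tumor, so its 0 members cannot be read beside the others. Of 75 mouse members called, the 14 alternatives called 47 to 75 of the same genes, each with the same sign wherever tested. Leaving out 1 library in turn gave 48 to 97 mouse members called, 48 to 93 higher and 0 to 5 lower. The count called lower, 2 in all libraries, was 1 at a pseudocount of 0.1, 1 with no filter, 0 with a filter at 5 RPKM, which leaves fewer genes tested, 5 with voom and 0 with the replicate block. The cause of the other shifts was not tested.

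The replicate block rests on 2 pairs, a pairing absent from the labels, and brain tumor 3 adds nothing to its difference. It called 55 mouse members, 55 higher and 0 lower, and 0 human members, among 1484 mouse and 114 human genes. Deviations of same-numbered tumors had correlations of -0.08 and 0.06 over human genes and 0.03 and 0.05 over mouse genes. With 2 lung tumors these deviations mirror each other, so differently numbered tumors give the same values with the sign reversed. The correlations therefore cannot decide on a pairing, and the numbers were taken as names because the labels pair no tumors. The median log2 fold change of all mouse genes was 0.08, but 0.22 with median-ratio scaling and -0.11 with quantile normalization, and none of the 38 mouse and 8 human named members followed through the alternatives changed sign. Without brain tumors 1, 2 and 3 the calls over all mouse genes were 1518, 1195 and 1294, without lung tumors 1 and 2 they were 4591 and 8275, and in all libraries 3457. Over all human genes 1 was called in all libraries and 0 without brain tumor 1, 2 or 3. A fit without lung tumor 1 or 2 leaves 1 lung tumor, whose spread is taken from the brain tumors. Lung tumor 1 had the fewest mouse reads and 66 tested members at 0, against 18 in lung tumor 2, and the part of depth in this was not tested.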
